A study of Homo sapiens with 4 samples.

Results

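The metallothionein genes *MT2A*, *MT1E*, *MT1F*, *MT1G*, *MT1L*, *MT1M* and *MT1X* were followed through RNA-seq of edited and wild-type MCF12A cells. They were chosen by gene name, though earlier results of these data were known, and their levels were read from a table of 16811 genes. Of these 7 genes, 6 had values, and *MT1M* was not analysed here. MCF12A, an epithelial line from human breast, is known as non-tumorigenic, although the labels call the source a breast cancer cell line. The edited cells carry the genotype label C1orf132 KO, made by a CRISPR/Cas9 deletion at the predicted p2 promoter of the long noncoding RNA gene *C1orf132*, and the wild-type cells carry no such deletion. There were 2 libraries of each kind, called edited 1 and 2 and wild-type 1 and 2 here.

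All 4 cultures grew in the same medium, with 5% horse serum, 20 ng/mL EGF, 100 ng/mL cholera toxin, 0.5 µg/mL hydrocortisone and 10 µg/mL insulin supplied in a zinc solution. The edited cells came from sorted single cells grown into colonies, and the sources do not state whether both edited libraries came from 1 colony. The groups rest on their labels, because *C1orf132* was not analysed here. Replicates are described as biological, without saying what was repeated. P-values therefore measure the spread between these libraries.

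Metallothioneins are small cytoplasmic proteins rich in cysteine, which bind zinc and copper through their sulphur atoms and take up toxic metals such as cadmium. Zinc raises their transcription through the factor MTF1, which binds metal response elements in their promoters. Glucocorticoids such as hydrocortisone also raise *MT2A*. In humans the functional genes lie side by side at 16q13, and *MT2A* is the most widely expressed of them.

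The coding sequences of 4 members are shown because they carry what defines the family and show how alike its members are. They are given from the start codon to the last codon of the reading frame, with in-frame cysteine codons (TGC or TGT) in capitals.
MT2A: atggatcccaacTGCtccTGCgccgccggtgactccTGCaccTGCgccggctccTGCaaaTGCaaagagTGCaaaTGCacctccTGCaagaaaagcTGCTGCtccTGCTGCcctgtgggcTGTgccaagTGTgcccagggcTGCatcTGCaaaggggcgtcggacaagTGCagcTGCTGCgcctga
MT1X: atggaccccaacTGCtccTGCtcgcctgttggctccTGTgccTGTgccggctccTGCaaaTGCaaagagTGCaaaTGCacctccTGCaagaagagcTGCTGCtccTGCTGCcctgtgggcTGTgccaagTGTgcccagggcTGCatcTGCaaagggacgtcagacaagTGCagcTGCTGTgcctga
MT1F: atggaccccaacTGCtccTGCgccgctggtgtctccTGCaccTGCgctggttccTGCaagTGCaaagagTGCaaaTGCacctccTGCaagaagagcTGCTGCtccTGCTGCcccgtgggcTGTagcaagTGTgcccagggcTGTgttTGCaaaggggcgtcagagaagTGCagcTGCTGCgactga
MT1L: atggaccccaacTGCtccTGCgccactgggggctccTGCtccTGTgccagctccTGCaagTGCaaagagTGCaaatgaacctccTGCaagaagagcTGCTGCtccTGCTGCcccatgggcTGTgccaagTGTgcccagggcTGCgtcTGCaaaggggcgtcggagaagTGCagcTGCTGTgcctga
The *MT2A*, *MT1X* and *MT1F* sequences have 61 codons before the stop, of which 20 encode cysteine, and so does *MT1E*. *MT1G* has 62 codons before the stop and 20 for cysteine. *MT1L*, annotated as a transcribed pseudogene, has an in-frame stop at codon 26 after 7 cysteine codons, and its capitals beyond that stop mark codons of the former frame. Over the 6 members, identity between coding sequences ran from 88.7% (*MT1F* and *MT1X*) to 94.6% (*MT1E* and *MT1L*).

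Reads were 75 bases long. No stretch of 75 bases of the *MT2A*, *MT1F* or *MT1L* transcript was found exactly in the transcript of a gene elsewhere. The share was 1.64% of such stretches for *MT1E*, 6.55% for *MT1G* and 8.18% for *MT1X*. *MT1G* and *MT1X* shared 22 of them, so reads there could be counted for either gene. *MT1L* lies wholly within another annotated gene model, as does a stretch of *MT1X*, and the division of reads between such models is not known here.

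In GRCh38 the 6 members span 75.6 kb of chromosome 16. *MT2A* runs from 56608584 to 56609497, *MT1L* from 56617461 to 56618818, *MT1E* from 56625781 to 56627112 and *MT1F* from 56657959 to 56659303, all on the plus strand. *MT1G* runs from 56666730 to 56668065 on the minus strand. *MT1X* runs from 56682470 to 56684196 on the plus strand. Each has 3 exons. RefSeq promoter sequences (250 bases before to 50 after the start, GRCh38.p14) were at hand for *MT2A* (chr16:56608334-56608633, plus strand) and *MT1X* (chr16:56682220-56682519, plus strand). They are shown with the core of the metal response element in capitals.
MT2A promoter: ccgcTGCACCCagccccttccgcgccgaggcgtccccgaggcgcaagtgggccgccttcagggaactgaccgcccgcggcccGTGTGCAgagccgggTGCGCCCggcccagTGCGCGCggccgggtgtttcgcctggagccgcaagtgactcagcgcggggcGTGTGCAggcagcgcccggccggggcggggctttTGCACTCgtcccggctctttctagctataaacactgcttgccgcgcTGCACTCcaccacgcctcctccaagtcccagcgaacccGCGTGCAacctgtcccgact
MT1X promoter: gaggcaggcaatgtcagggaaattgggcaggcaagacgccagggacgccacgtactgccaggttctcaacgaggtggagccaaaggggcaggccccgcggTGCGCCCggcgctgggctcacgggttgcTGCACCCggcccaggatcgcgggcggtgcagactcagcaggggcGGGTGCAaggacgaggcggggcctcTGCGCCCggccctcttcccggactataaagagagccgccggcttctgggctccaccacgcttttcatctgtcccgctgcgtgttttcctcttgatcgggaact
The letters searched were TGCACNC and TGCGCNC on both strands, and no matches overlapped. *MT2A* had 8 matches, 5 on the plus and 3 on the minus strand, from 246 bases before the start to 31 after it. *MT1X* had 4 matches, between 150 and 53 bases before the start. At least 1 match was present in 29.6% of 35116 promoters of the same length, at least 4 in 0.601% and at least 8 in 0.0199%. A match describes the letters only.

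The deposited signal appeared to be adjusted for transcript length and library size, as inferred from a minority of short genes. Levels of different genes were set side by side on that basis. *MT2A* was the highest member in each of the 4 libraries, followed in each by *MT1E*, *MT1X*, *MT1L*, *MT1F* and *MT1G*. The ranges over libraries overlapped between *MT1E* and *MT1X* and between *MT1X* and *MT1L*, and not between the other neighbours in this order. *MT2A* supplied 55.8% to 81.3% of the summed member signal and *MT1E* 11.2% to 25.7%.

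**Figure D1:**
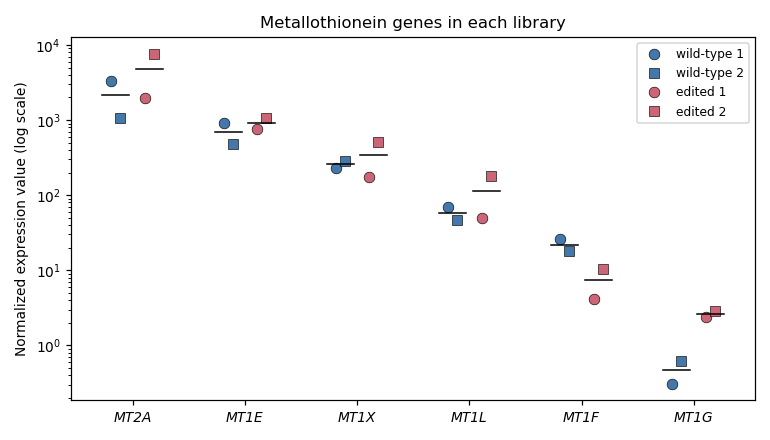
Normalized expression value (signal, log scale) of the 6 members in wild-type 1 and 2 (blue) and edited 1 and 2 (red), with circles for replicate 1, squares for replicate 2 and lines at the group means. The groups overlap for *MT2A*, *MT1E*, *MT1X* and *MT1L*, while *MT1F* is lower and *MT1G* higher in both edited libraries.

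The first comparison was whether the members differed between edited and wild-type cells. None of the 6 members passed the test between edited and wild-type cells (limma on log2(value + 1), adjusted p under 0.05), and 2 members, *MT1F* and *MT1G*, had an unadjusted p under 0.05. Of the 9590 genes with a mean signal of at least 10, 680 passed (7.09%), 277 with more signal after editing (2.89%) and 403 with less (4.20%), and 3095 had an unadjusted p under 0.05. *MT1G* lies under that mean and was tested among all 16811 genes, of which 4.73% passed. The median log2 fold change of the 5 members above the mean was 0.44, against 0.09 over all tested genes, with 4 above and 1 below 0. With 2 libraries a group, an exact two-sided permutation test of a single value cannot go below 0.333.

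*MT2A*, the main human metallothionein, had a signal of 1964 in edited 1 and 7643 in edited 2, and of 3275 in wild-type 1 and 1057 in wild-type 2. The highest and the second lowest library were both edited, so the groups overlapped. Edited cells averaged 4804 ± 4016 and wild-type cells 2166 ± 1569 (SD, n = 2 each), a ratio of 2.22. The log2 fold change was 1.06 with a standard error of 0.78 (limma, adjusted p = 0.387). Without edited 2 it was 0.08, and without edited 1 it was 2.04.

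*MT1E*, the second most abundant member, read 759 and 1052 in edited 1 and 2, against 904 and 483 in wild-type 1 and 2. Its groups overlapped too, with wild-type 1 between the edited libraries. Means were 906 ± 207 and 693 ± 297 (SD, n = 2 each), and the log2 fold change was 0.44 with a standard error of 0.36 (limma, adjusted p = 0.441). It was -0.02 without wild-type 2.

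*MT1X*, a functional class I gene at the distal end of the cluster, read 175 and 514 in edited 1 and 2, against 231 and 290 in wild-type 1 and 2. Both wild-type libraries lay between the edited ones. The log2 fold change was 0.21 with a standard error of 0.51 (limma, adjusted p = 0.801), and its sign turned under quantile normalization (-0.01), under cyclic loess normalization (-0.10) and without edited 2 (-0.56).

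*MT1L*, the transcribed pseudogene, read 49.3 and 181 in edited 1 and 2, against 70.0 and 46.6 in wild-type 1 and 2. Edited 2 stood above the other 3, which lay close together. The log2 fold change was 0.72 with a standard error of 0.60 (limma, adjusted p = 0.447). Without edited 1 it passed the test (1.65, adjusted p = 0.0311 from limma), and without edited 2 its sign turned (-0.21), with an adjusted p from 0.0311 to 0.791 over the 14 other settings without a crossed block (a block that swaps replicate numbers between the groups).

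*MT1F*, a functional class I gene expressed at a low level here, read 4.20 and 10.5 in edited 1 and 2, against 25.9 and 18.2 in wild-type 1 and 2. Both edited values lay below both wild-type values, with means of 7.36 ± 4.47 and 22.1 ± 5.42 (SD, n = 2 each). Groups did not overlap for 65.1% of tested genes, and *MT1F* was the 1 of 5 tested members for which this held. The log2 fold change was -1.55 with a standard error of 0.42 (limma, adjusted p = 0.0796, unadjusted 0.0118). It passed without edited 2 (-2.13, adjusted p = 0.00851 from limma), and was -0.98 without edited 1 (adjusted p = 0.142 from limma). Over the 14 other settings without a crossed block the adjusted p ran from 0.00851 to 0.249.

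*MT1G*, a functional class I gene on the opposite strand to the others, read 2.41 and 2.89 in edited 1 and 2, against 0.310 and 0.629 in wild-type 1 and 2. Both edited values lay above both wild-type values. These values correspond to about 8 and 11 reads in edited and 1 and 2 in wild-type libraries, or 19 against 3 reads. Per unit of depth that is a ratio of 5.77, with an exact 95% interval from 1.70 to 30.45 that covers counting error only. It leaves out errors in assigning reads to genes. *MT1G* and *MT1X* share 22 stretches of read length, and 11 of the *MT1E* transcript occur in *MT1G*. *MT1X* rested on an estimated 603 to 1986 reads and *MT1E* on 3317 to 8085. How many reads from the shared stretches were counted for *MT1G* is not known here. The log2 fold change was 1.32 with a standard error of 0.27 (limma, adjusted p = 0.0577 among all 16811 genes). It passed by small margins under quantile normalization (adjusted p = 0.0466), cyclic loess normalization (0.0452) and without the variance trend (0.0464), and over the 14 other settings without a crossed block the adjusted p ran from 0.0452 to 0.225. The log2 fold change depends on the constant added before the logarithm, at 2.33 with 0.1 and 0.48 with 5.

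Steps found in the values of a minority of short genes put the estimated depth of edited 2, wild-type 1 and wild-type 2 at 1.12, 0.930 and 1.00 times that of edited 1. *MT2A* rested on an estimated 3624 reads (wild-type 2) to 29330 reads (edited 2) and *MT1F* on 15.3 to 87.4. These numbers are approximate, since reads were shared among transcripts, and without molecular identifiers several reads may stem from 1 molecule. Counting error is therefore small beside the gap between replicates for *MT2A*, and large for *MT1G*.

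In both groups, replicates of the 5 tested members differed by more than the median gap over tested genes, and *MT1G* lies under the filter. Edited 2 exceeded edited 1 by 3.89 times in *MT2A*, 3.67 times in *MT1L*, 2.94 times in *MT1X*, 2.50 times in *MT1F*, 1.39 times in *MT1E* and 1.20 times in *MT1G*. Wild-type 1 exceeded wild-type 2 by 3.10 times in *MT2A*, 1.87 times in *MT1E*, 1.5 times in *MT1L* and 1.42 times in *MT1F*. The direction was the other way in *MT1X*, where wild-type 2 was 1.25 times wild-type 1, and in *MT1G*, where it was 2.03 times on a few reads.

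On the log2 scale the *MT2A* gap between replicates was 1.96 in edited and 1.63 in wild-type cells, and 98.9% and 99.2% of tested genes had a smaller one. The median gap over tested genes was 0.233 in edited and 0.238 in wild-type cells. *MT1L* and *MT1X* had wide gaps in edited cells (98.7% and 98.2% of genes below) and narrower ones in wild-type cells (86.5% and 63.9%). *MT1E* stood higher in wild-type (95.6%) than in edited cells (78.9%), and *MT1F* higher in edited (96.6%) than in wild-type cells (80.8%). What differed between the cultures or libraries of 1 group is not given in the sources used here.

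**Figure D2:**
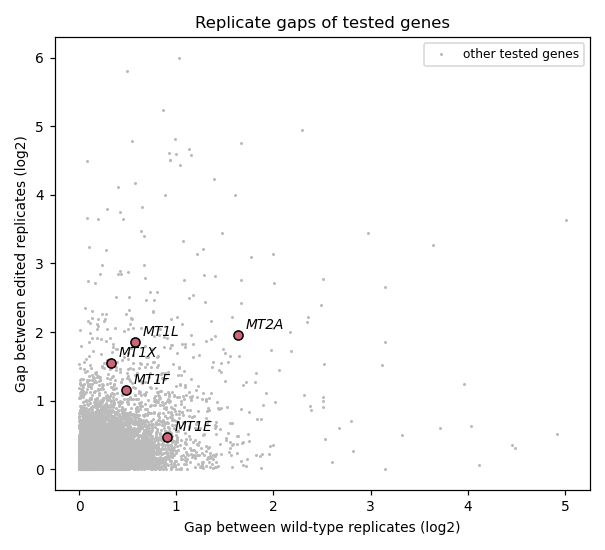
Log2 gap between the edited replicates (vertical axis) against that between the wild-type replicates (horizontal axis), with 1 point for each of 9590 tested genes and the 5 tested members in red. *MT2A* stands apart on both axes, at 1.96 and 1.63.

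The order edited 2, wild-type 1, edited 1, wild-type 2, from high to low, was shared by *MT2A*, *MT1E* and *MT1L*. It crosses the labels, with an edited and a wild-type library in the upper pair and again in the lower. Of all 9590 tested genes 362 had this order (3.77%). The summed signal of the 6 members, most of which is *MT2A* and *MT1E* and whose order follows theirs, was 2954 and 9404 in edited 1 and 2, against 4506 and 1895 in wild-type 1 and 2. That was 0.178% and 0.569% of all signal in edited 1 and 2 and 0.281% and 0.131% in wild-type 1 and 2. The ratio of the group means was 1.93, and it was 0.923 without edited 2 and 3.26 without wild-type 1.

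**Figure D3:**
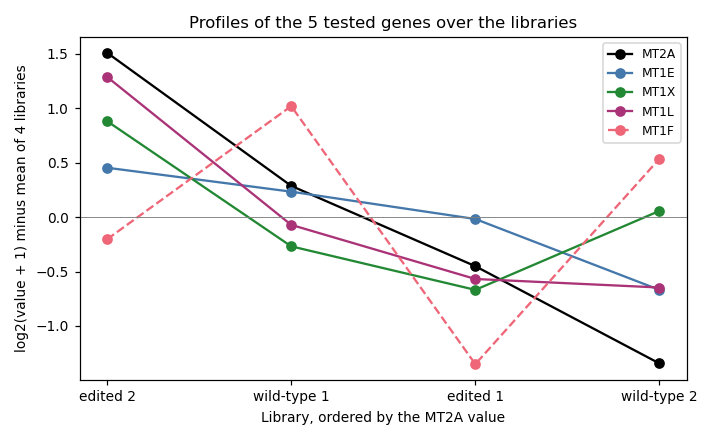
log2(value + 1) of the 5 tested members, less each gene's mean over the 4 libraries, with libraries ordered by *MT2A*. *MT2A*, *MT1E* and *MT1L* descend from edited 2 to wild-type 2, *MT1X* is lowest in edited 1, and *MT1F* (dashed) is highest in wild-type 1.

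The 5 genes outside the family whose profile over the 4 libraries was nearest to that of the summed signal were *PLIN2*, *HMGA2*, *PHC2*, *FAM20C* and *RP11-290L1.3*. Nearness was the root mean square difference of centred log2 values, from 0.142 for *PLIN2* to 0.233 for *RP11-290L1.3*, over 4 libraries only. *PLIN2*, which coats lipid droplets, read 19.7 and 66.1 in edited 1 and 2, against 39.5 and 13.3 in wild-type 1 and 2. *HMGA2*, a chromatin architectural protein, read 10.8 and 33.8 in edited 1 and 2, against 13.7 and 4.66 in wild-type 1 and 2. Genes picked for a profile share it by choice.

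The genes that flank the cluster were compared to see whether the region moved as a block. As background, 7.09% of the 9590 tested genes passed (limma), and 3095 of them had an unadjusted p under 0.05. None of 16 tested neighbours at 16q13 passed (limma), with 7 at an unadjusted p under 0.05. Their median log2 fold change was 0.48, from -0.42 to 1.03, with 12 above and 4 below 0. *OGFOD1*, a prolyl hydroxylase gene that starts at -157 kb from *MT2A*, had 0.78 (limma, adjusted p = 0.0679). *BBS2*, a Bardet-Biedl syndrome gene at -138 kb, had -0.42 (adjusted p = 0.236 from limma). *NUP93*, a nuclear pore gene at 122 kb, had 0.63 (adjusted p = 0.135 from limma). *CPNE2*, a calcium-binding copine, was the 1 of 16 neighbours with the library order of *MT2A*, beside 3.77% of all tested genes. Without edited 2, 2 neighbours passed.

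**Figure D4:**
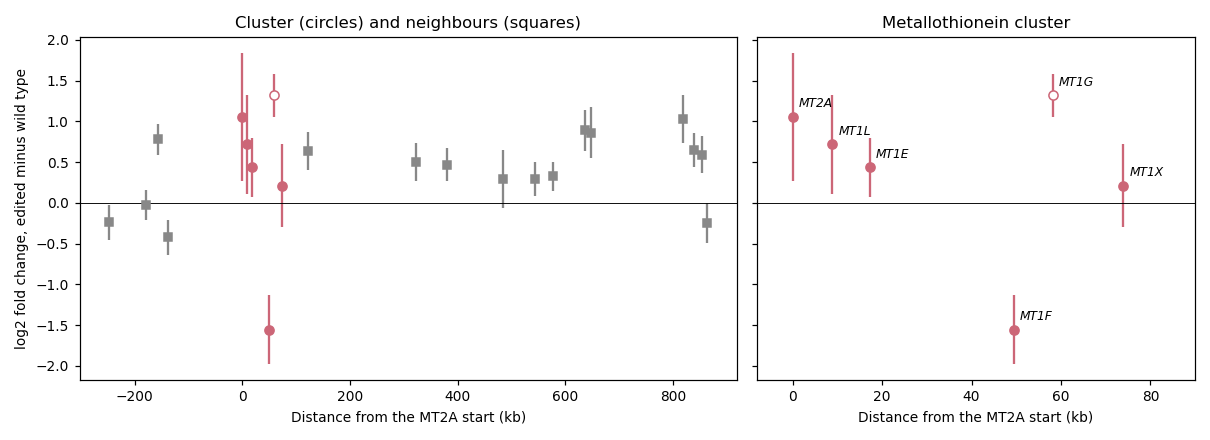
Log2 fold change, edited minus wild type, with bars of 1 standard error, for members (circles, enlarged on the right) and tested neighbours (squares). The horizontal axis is the distance in kb of each gene's lower coordinate, whatever its strand, from that of *MT2A*. *MT1F* at 49.4 kb (-1.55) and *MT1G* at 58.1 kb (1.32, open circle, from the fit without the filter) lie on opposite sides of 0.

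Genes that move or sense zinc and copper were examined next. Of 14 tested zinc transporters 1 passed, in the lower direction, beside 4.20% of all tested genes called lower and 7.09% called in either direction. The median log2 fold change of the 14 was 0.59. *SLC39A11*, a zinc importer of the ZIP family, fell from 32.4 and 34.4 in wild-type 1 and 2 to 14.8 and 13.1 after editing (log2 fold change -1.21, standard error 0.18, limma adjusted p = 0.0251). *SLC30A1*, the zinc exporter of the plasma membrane and itself a target of MTF1, read 26.4 and 15.9 in edited 1 and 2, against 12 and 16.1 in wild-type 1 and 2 (limma, adjusted p = 0.269). The library order of *MT2A*, found in 3.77% of all tested genes, did not hold for *SLC30A1*. *MTF1* read 6.33 and 6.17 in edited 1 and 2, against 4.93 and 5.91 in wild-type 1 and 2 (limma, adjusted p = 0.628 among all genes). *SLC39A10*, a zinc importer, was the 1 of 14 with the library order of *MT2A*, at 27.1 and 62.9 in edited 1 and 2, against 27.8 and 16.2 in wild-type 1 and 2.

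Of 11 tested copper genes 1 passed, in the higher direction, beside 2.89% of all tested genes called higher and 7.09% called in either direction. *SCO2*, which delivers copper to cytochrome c oxidase, rose from 26.6 and 23.1 in wild-type 1 and 2 to 62.4 and 47.3 after editing (1.10 on the log2 scale, limma adjusted p = 0.0420). *ATOX1*, the cytosolic copper chaperone, had 1.03 (limma, adjusted p = 0.0650). *SOD1*, the copper and zinc superoxide dismutase, had 0.85 (limma, adjusted p = 0.103). In the other direction, *SLC31A2* and *ATP7B* had -0.95 and -0.80 (limma, adjusted p = 0.0836 and 0.103). The call of 2 genes over zinc and copper together became 9 without edited 2 and none without wild-type 1 or wild-type 2.

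Hydrocortisone was present in all cultures, so glucocorticoid response genes were set beside *MT2A*. Of 19 tested, 1 rose and 3 fell, beside 2.89% and 4.20% of all tested genes, and the median of the 19 was -0.19. *TSC22D3*, which encodes the glucocorticoid-induced leucine zipper, fell from 153 and 131 to 55.4 and 43.9 (log2 fold change -1.50, adjusted p = 0.0238 from limma). *DUSP1*, a MAP kinase phosphatase, rose from 56.0 and 32.5 to 183 and 378 (2.60, adjusted p = 0.0336 from limma). *BIRC3*, an inhibitor of apoptosis, and *GLUL*, glutamine synthetase, fell as well (-3.30 and -1.91). The receptor gene *NR3C1* read 37.2 and 35.3 in edited 1 and 2, against 28.4 and 43.4 in wild-type 1 and 2 (limma, adjusted p = 0.915).

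*FKBP5*, a co-chaperone of the receptor and a common readout of it, read 205 and 173 in edited 1 and 2, against 104 and 148 in wild-type 1 and 2 (limma, adjusted p = 0.165). The library order of *MT2A* was found in *ANGPTL4*, *ERRFI1* and *PDK4*, 3 of the 19 genes (15.8%), and in 3.77% of all tested genes. *ANGPTL4*, an inhibitor of lipoprotein lipase, read 18.1 and 589 in edited 1 and 2, against 51.3 and 9.69 in wild-type 1 and 2. *PDK4*, a kinase that slows pyruvate oxidation, read 10.7 and 32.6 in edited 1 and 2, against 23.6 and 3.28 in wild-type 1 and 2. The other genes of this list named here lacked that full order. The replicate directions of *MT2A* in both groups were found in those 3 genes and in *DUSP1*, *GLUL*, *CEBPD*, *GADD45B*, *SGK1*, *MAOA* and *KLF9*. The other tested genes of this list, among them *TSC22D3*, *BIRC3*, *NR3C1* and *FKBP5*, did not have them. How many of all tested genes have these directions was not counted. The 4 calls of this list became 7 without edited 2 and none without wild-type 1 or wild-type 2.

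Of 12 tested genes of the metal and oxidative stress response, 3 rose and none fell, beside 2.89% and 4.20% of all tested genes. The median of the 12 was 0.46. *TXNRD1*, thioredoxin reductase, rose from 150 and 119 to 542 and 354 (log2 fold change 1.71, adjusted p = 0.0345 from limma). *NQO1*, a quinone reductase and target of NRF2, rose from 131 and 148 to 435 and 284 (1.33, adjusted p = 0.0471 from limma). *HSPA8*, the constitutive heat shock cognate, rose from 2414 and 1286 to 5778 and 5501 (1.68, adjusted p = 0.0461 from limma). *HMOX1*, haem oxygenase, which cadmium and haem induce, read 6.48 and 14.8 in edited 1 and 2, against 9.09 and 7.82 in wild-type 1 and 2. *FTH1*, the ferritin heavy chain, read 22626 and 41112 in edited 1 and 2, against 16855 and 7807 in wild-type 1 and 2 (limma, adjusted p = 0.103). As in *MT2A*, edited 2 exceeded edited 1 and wild-type 1 exceeded wild-type 2, while the groups did not overlap, as for 65.1% of tested genes. *GCLC*, which makes a glutathione precursor, showed the same replicate directions, at 259 and 526 in edited 1 and 2, against 206 and 141 in wild-type 1 and 2. *HMOX1* shared them too, while *TXNRD1*, *NQO1* and *HSPA8* had more signal in edited 1 than in edited 2. The share of all tested genes with these directions was not counted. The 3 calls became 1 without wild-type 1 and none without wild-type 2.

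**Figure D5:**
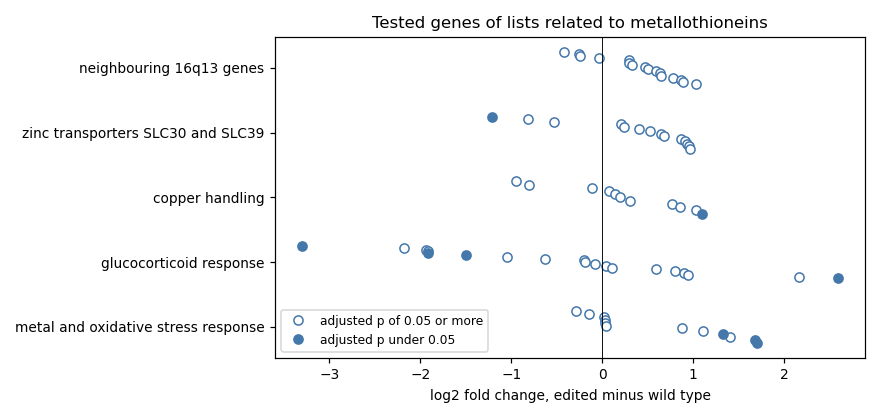
Log2 fold change, edited minus wild type, of each tested gene in 5 related lists, with filled points for an adjusted p under 0.05 (limma). The neighbours have no filled point, and the glucocorticoid genes run from -3.30 to 2.60.

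The labelled cell type was checked against its markers. Of 10 tested epithelial markers 6 fell and 1 rose in edited cells (2 and 0 calls in all without wild-type 1 and without wild-type 2), and the summed signal of all 11 listed was 4892 and 5684 in edited 1 and 2, against 11224 and 20418 in wild-type 1 and 2. *KRT5* and *KRT17* were most of this sum in each library. *CDH1*, the epithelial cadherin, had a log2 fold change of -5.28. *KRT8* was the marker that rose, from 194 and 175 in wild-type 1 and 2 to 378 and 365 in edited 1 and 2 (limma, adjusted p = 0.0449). *KRT19*, a luminal keratin under the filter, read 0.471 and 0 in edited 1 and 2, against 2.70 and 6.42 in wild-type 1 and 2. Summed mesenchymal markers, of which 6 of 12 had values, read 1024 and 5075 in edited 1 and 2, against 926 and 538 in wild-type 1 and 2, and of the 4 tested 1 rose and 1 fell. *VIM*, the mesenchymal filament, rose from 257 and 194 to 824 and 1215 (limma, adjusted p = 0.0210), and *COL1A1*, a chain of type I collagen, fell from 15.6 and 28.1 to 3.19 and 5.58 (limma, adjusted p = 0.0420). *FN1*, fibronectin, read 171 and 3735 in edited 1 and 2, against 645 and 314 in wild-type 1 and 2, and was most of the mesenchymal sum in edited 2. *CDH2* and *ZEB1* lay under the filter, and both rose in the fit among all genes (limma, adjusted p = 0.0347 and 0.0307). *CDH2* read 4.52 and 8.87 in edited 1 and 2, against 0.429 and 0.0996 in wild-type 1 and 2. *ZEB1* read 5.83 and 6.80, against 0.333 and 0.927. The 5 endothelial markers were not analysed here. The part of these marker shifts in the metallothionein values was not tested. In bulk RNA, fewer cells with a transcript and less of it per cell cannot be told apart.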

How the data were processed

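The members, lists and tests were chosen with earlier results of these data known. RNA-seq libraries (poly(A) selected, TruSeq, single-end reads of 75 bases) were made from 2 edited and 2 wild-type MCF12A cultures, and groups were taken from the labels. The authors deposited 1 table of normalized signal, with a value for each gene and library that appears to take account of transcript length and library size. The submitters' processing notes name HISAT2, Salmon and hg38, and the normalization is not given in the sources used here. The length scaling was inferred from a minority of short genes with a single transcript: 22 to 27 of 274 to 294 in each library lay within 0.5% of a whole multiple of 1 step per kb, against 4 to 5 at the median of the other steps tried. Whole reads could not be recovered for most genes, so no count test was run, and read numbers are estimates.

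Values were compared on log2(value + 1) with limma 3.58.1 in R 4.3.3 (lmFit, eBayes with trend, no block) for genes with a mean of at least 10, with Benjamini-Hochberg adjustment over all of them and a threshold of 0.05. This scale makes changes of genes with low values look smaller than they are. The fit was tested on simulated data. Alternatives in pseudocount, filter, scaling, block, trend and threshold were also tried, as was leaving out each library. Named genes were all members, genes of the lists (those past the threshold first) and the 5 genes nearest to the summed profile. Coding sequences came from GENCODE 44 transcripts, and promoters and positions from RefSeq GRCh38.p14. Python 3.11.15 was used.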

Additional observations from a re-analysis of the deposited data

How the results depend on the processing

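Under the alternative settings, 5 log2 fold changes of members turned sign and 7 newly passed, and the causes were not tested. The 0 members called became 1 with quantile normalization, cyclic loess normalization and no variance trend (*MT1G* each time), and 0 to 1 with 1 library left out. The sign turned for *MT1X* (-0.0073 with quantile normalization, -0.10 with cyclic loess, -0.56 without edited 2), *MT1E* (-0.016 without wild-type 2) and *MT1L* (-0.21 without edited 2). With 1 library left out, the log2 fold change ran from -0.02 to 0.89 for *MT1E*, from -0.21 to 1.65 for *MT1L*, from -0.56 to 0.99 for *MT1X* and from -2.13 to -0.98 for *MT1F*. The 680 genes called became 419 at a mean of at least 50, 795 without a filter, 1 at an adjusted p under 0.001, and 4 (without wild-type 2) to 1431 (without edited 2) with 1 library left out. The 2 zinc and copper calls, 1 in each direction, became 2 higher and 0 lower at a mean of at least 50, 1 without a filter, 0 at 0.001 and 0 to 9 with 1 library left out. The 4 glucocorticoid calls became 0 at 0.001 and 0 to 7 with 1 library left out. The 0 calls among neighbours became 0 to 2. The ratio of summed signal, 1.93, ran from 0.923 (below 1, without edited 2) to 3.26 with 1 library left out, and from 1.69 to 1.81 under other scalings. Equal library totals shifted the median of all genes by -0.12 on the log2 scale, and the direction of the members other than *MT1X* was the same under each scaling.

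No source says what a replicate number shares between groups, and deviations of same-numbered libraries correlated at -0.138. With the replicate block, 0 members, 133 of all genes, 0 zinc and copper genes and 1 glucocorticoid gene were called. A block on crossed numbers, chosen after the data were seen, called 2 members (*MT2A* higher and *MT1F* lower), 1002 genes, 4 zinc and copper genes and 8 glucocorticoid genes. Leaving out libraries for the stress and epithelial lists was also chosen after the data were seen. With 1 library left out, the lone library of a group is assumed to vary like the other group. Depth limits *MT1G* to a few reads, and 2 libraries a group limit all tests.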

Other observations

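Other metallothionein genes with values were low. *MT1A*, a functional class I member, read 4.44 and 6.59 in edited and 2.54 and 0.295 in wild-type cells, which is about 15, 25, 8 and 1 reads (limma, adjusted p = 0.124 among all genes). The pseudogene *MT1JP* read 1.54 and 4.21 in edited and 1.35 and 0.658 in wild-type cells. *MT1P1* read 2.37 and 1.06 in edited cells and was listed at 0 in both wild-type libraries, and *MT1P3* read 0.641, 1.16, 0 and 1.98 in edited 1 and 2 and wild-type 1 and 2. *MT1B*, *MT1H*, *MT3* and *MT4* were not analysed here.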
